A study of Mus musculus with 14 samples.

Results

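The clustered protocadherins are the cell adhesion genes of the Pcdha, Pcdhb and Pcdhg families, which lie side by side on mouse chromosome 18. Members were taken by name, as the protein-coding genes of the GENCODE annotation whose symbol starts with Pcdha, Pcdhb or Pcdhg. This gave 57 of 21938 protein-coding genes, with 14 in the alpha, 22 in the beta and 21 in the gamma cluster. By subgroup they are 12 alternate alpha genes, 2 alpha C-type genes (Pcdhac1 and Pcdhac2), 22 beta genes, 12 gamma-A genes, 6 gamma-B genes and 3 gamma C-type genes (Pcdhgc3, Pcdhgc4 and Pcdhgc5). In this annotation 2 gene IDs carry the symbol Pcdha11, and they are told apart here as the upstream and the downstream Pcdha11.

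Protocadherins are cadherin-like membrane proteins that bind to the same isoform on a neighbouring cell. In the alpha and gamma clusters each variable first exon has its own promoter and is spliced to constant exons shared by the whole cluster, whereas beta genes stand alone. A neuron switches on only a few alternate promoters, picked largely at random, so that each neuron carries its own set of surface labels and can tell its own branches from those of others. Most alternate promoters hold a short conserved element that is bound by the insulator protein CTCF, and the C-type genes are known to be switched on in a more uniform way.

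The study asked how loss of Smarcb1, a core subunit of the BAF chromatin remodelling complex, changes the binding of this complex and of Polycomb in stem cells. Chromatin was taken from 81K1 cells, which are mouse embryonic stem cells made from the line OG2 and derived from a single chosen clone (K1). The cells carry a doxycycline-inducible shRNA against Smarcb1 in the Rosa26 locus. Control cells (ctrl) carried the same cassette and received no doxycycline, and Smarcb1 knockdown (kd) cells received 1 µg/ml doxycycline for 72 h, so that the effect of doxycycline itself cannot be told apart from that of the knockdown in these lists. The 5 antibodies were directed against Smarca4 (the ATPase that drives the BAF complex), Ezh2 (the methyltransferase of Polycomb repressive complex PRC2), H3K27me3 (the histone mark that Ezh2 writes), H3K27ac (a mark of active promoters and enhancers) and H3K4me3 (a promoter mark).

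There was 1 library per antibody and condition, so no difference between ctrl and kd has a replicate check and no test was made. The deposited data are lists of called regions, with no read counts, and the depth of each library is unknown here. A region that is missing from a list is a missing call and not a measured absence of signal. Between 5364 and 79014 regions per list were used, and the kd list was the shorter for Smarca4 (72339 against 79014 in ctrl), Ezh2 and H3K27me3 and the longer for H3K27ac and H3K4me3. Smarca4 and H3K27me3 were immunoprecipitated by a company and the other antibodies in the authors' laboratory, so that antibody and laboratory cannot be told apart. The lists do not measure the level of Smarcb1. Among 10 stem cell marker promoters, H3K27ac was called at 7 in ctrl and 9 in kd, with Pou5f1, Nanog and Sox2 called in both. It was called at none of 6 neuron marker and none of 6 fibroblast marker promoters in either condition.

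The locus spans 913.7 kb on mm10 (chromosome 18, 36929184 to 37842873, with 1 kb added on each side), and all 57 genes lie on the plus strand. The alpha cluster runs from 36929184 to 37188661, the beta cluster from 37263938 to 37525479 and the gamma cluster from 37660793 to 37842873. A promoter was defined as 1 kb on either side of the transcription start site (TSS) of the gene. No window overlapped the window of another member, since the closest starts are 4131 bp apart. The first exon was over 2 kb long in 14 of 14 alpha, 20 of 22 beta and 21 of 21 gamma genes, so that a window holds only the front part of most first exons.

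All subgroups except the C-type genes had promoters of lower GC content than the typical gene, with medians from 41.7% (alternate alpha) to 45.5% (gamma-A) against 51.2% over all protein-coding genes. The subgroups differed in CpG content. The observed over expected CpG ratio had a median of 0.641 in the alternate alpha genes and of 0.334 in the beta genes, and the ranges of these subgroups (0.52 to 0.702 and 0.138 to 0.475) did not overlap. The median over all genes was 0.474. Matches to the core of the consensus motif known for CTCF were searched on both strands. A match lay within 1 kb of the TSS in 12 of 12 alternate alpha, 2 of 2 alpha C-type, 2 of 22 beta, 8 of 12 gamma-A, 0 of 6 gamma-B and 2 of 3 gamma C-type genes, compared with 36.9% of all protein-coding promoters. Between 1 and 3 kb downstream of the TSS a match was found in 15 of 22 beta genes but in 3 of 12 alternate alpha genes, compared with 26.9% of all genes. A match describes the letters in the window and not a bound site. The search allowed no mismatch at the fixed letters of the motif, so that a window without a match can still hold a CTCF element.

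Over the whole set, H3K27me3 was the mark of these promoters and H3K27ac was absent from them in the lists. H3K27me3 was called at 56 of 57 promoters in ctrl and 54 in kd, against 34.9% and 29.2% of all protein-coding promoters. H3K27ac was called at no member promoter in either condition, against 16.0% and 30.9% of all promoters, with 1.83% of all promoters called in ctrl alone and 16.8% in kd alone. Smarca4 was called at 19 promoters in ctrl and 35 in kd, that is 33.3% and 61.4% of members, while its share of all promoters was 62.5% in ctrl and 63.5% in kd. H3K4me3 was called at 20 promoters in ctrl and 27 in kd, or 35.1% and 47.4% of members, against 56.6% and 60.4% of all promoters. Ezh2 was called at 1 member promoter in ctrl and 7 in kd, or 1.75% and 12.3%, against 7.13% and 12.6% of all promoters. The member share for Ezh2 in kd was therefore close to the background. The clusters were not alike, as the call matrix and the shares by subgroup show.

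**Figure D1:**
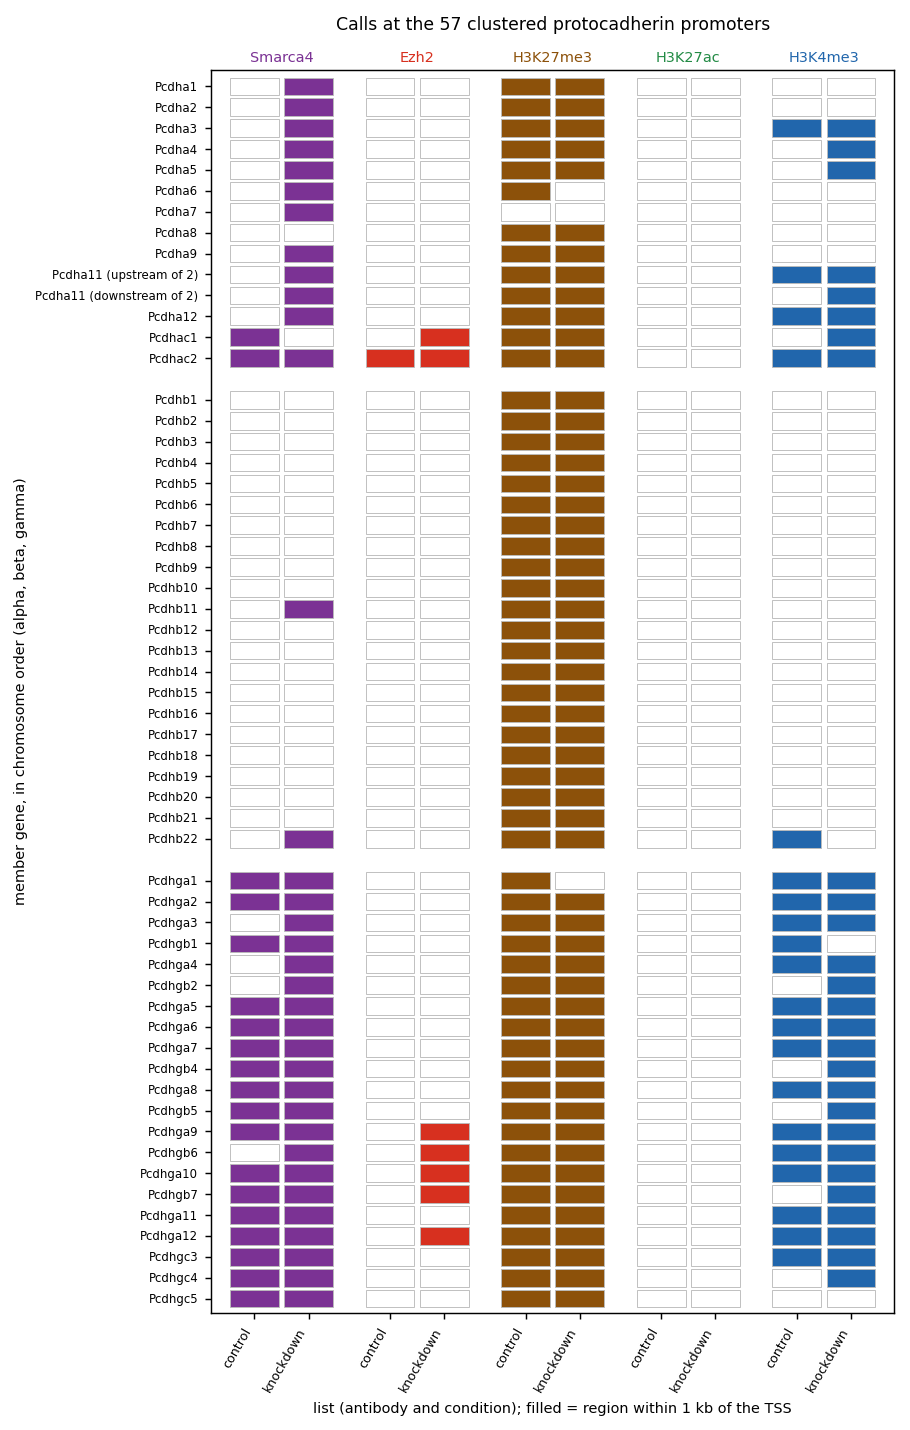
Calls at the 57 member promoters, in chromosome order from top to bottom. Each column is the list of 1 antibody in control or knockdown, and a filled box means that a called region lies within 1 kb of the TSS. Smarca4 boxes of the alternate alpha genes are filled in knockdown alone, the beta genes carry almost only H3K27me3, and the H3K27ac columns are empty.

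**Figure D2:**
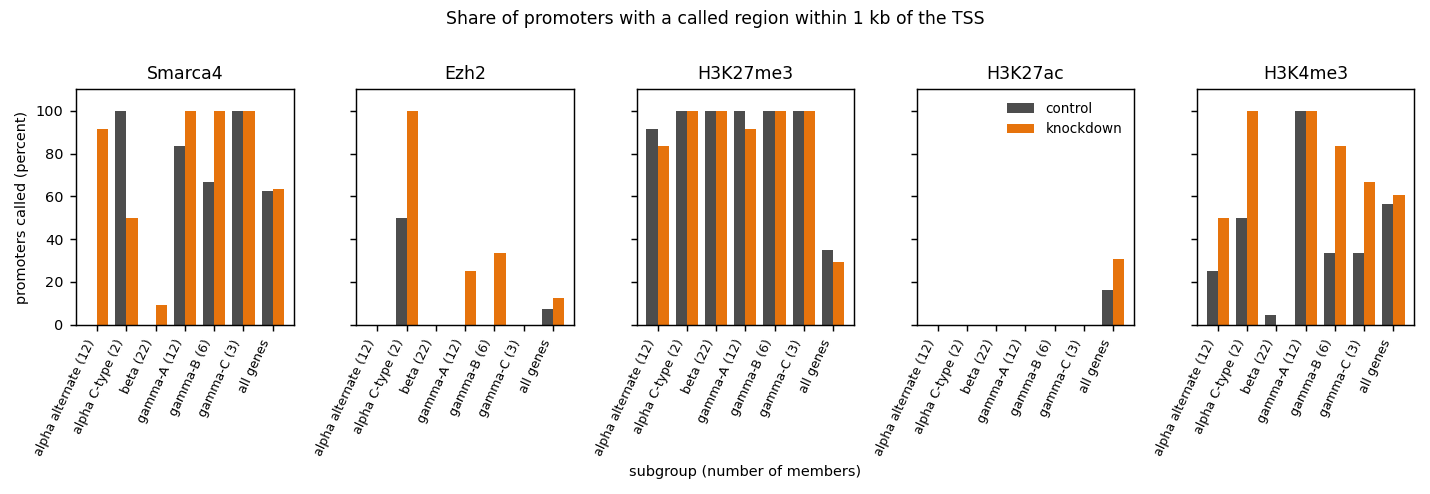
Percentage of promoters with a called region within 1 kb of the TSS, for each subgroup (number of members in brackets) and for all 21938 protein-coding genes, in control (grey) and knockdown (orange). There is 1 library per bar and hence no error bar. For Smarca4 the alternate alpha genes stand at 0 and 91.7%, and all genes at 62.5% and 63.5%.

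The alternate alpha promoters were the subgroup whose Smarca4 calls differed most between the lists. No alternate alpha promoter had a Smarca4 peak in ctrl and 11 of 12 had one in kd. The score that MACS2 gives each peak, which is larger for stronger evidence and is not scaled between libraries, was 38 at Pcdha1, 76 at Pcdha2, 30 at Pcdha3, 83 at Pcdha4, 53 at Pcdha5, 44 at Pcdha6, 20 at Pcdha7 and 28 at Pcdha9. It was 83 at the upstream Pcdha11, 62 at the downstream Pcdha11 and 92 at Pcdha12. These are scores of middling to low rank, since the median of the whole kd list was 63. Pcdha8 was the exception and had no promoter peak in either list. Over all protein-coding promoters, 3.69% were called for Smarca4 in kd alone and 2.69% in ctrl alone. Of promoters without a ctrl call, 9.83% were called in kd. This share was 16.5% for those that also held a CTCF match, and 21.3% for those that held a match and were marked by H3K27me3 in ctrl. Among all promoters with a match, whatever their call in ctrl, 3.72% were called in kd alone and 2.24% in ctrl alone, and among all promoters with H3K27me3 in ctrl 3.81% were called in kd alone. The alternate alpha promoters stood at 91.7%. The kd list was the shorter, and with lists cut to equal length the count stayed at 0 in ctrl and 11 in kd. With peaks of a score of at least 50 alone, 6 alternate alpha promoters were called in kd and 0 in ctrl. With 2 kb on each side of the TSS, 5 were called in ctrl and 12 in kd.

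In ctrl the Smarca4 peaks of the alternate alpha genes lay further inside the first exon. In ctrl, 5 of 12 alternate alpha genes (Pcdha2, Pcdha3, Pcdha4, Pcdha9 and Pcdha12) had a peak centred 1308 to 1863 bp downstream of the TSS, with scores from 43 to 80. In kd the 11 promoter peaks were centred 221 to 421 bp downstream of the TSS, and 7 of the 12 genes, Pcdha8 among them, had a peak 1299 to 2231 bp downstream. Of 5 first-exon peaks in ctrl, 4 overlapped a peak of the kd list, and at Pcdha12 the score was 66 in ctrl and 174 in kd. The promoter peaks in kd lay close to the CTCF matches. Their centres were 21 to 278 bp from the nearest match, and 9 of 11 peaks held a match. Across the whole Smarca4 lists, 18.0% of peaks in ctrl and 19.3% in kd held a match. Among peaks found in 1 condition only, the share was 8.52% in ctrl and 11.5% in kd.

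**Figure D3:**
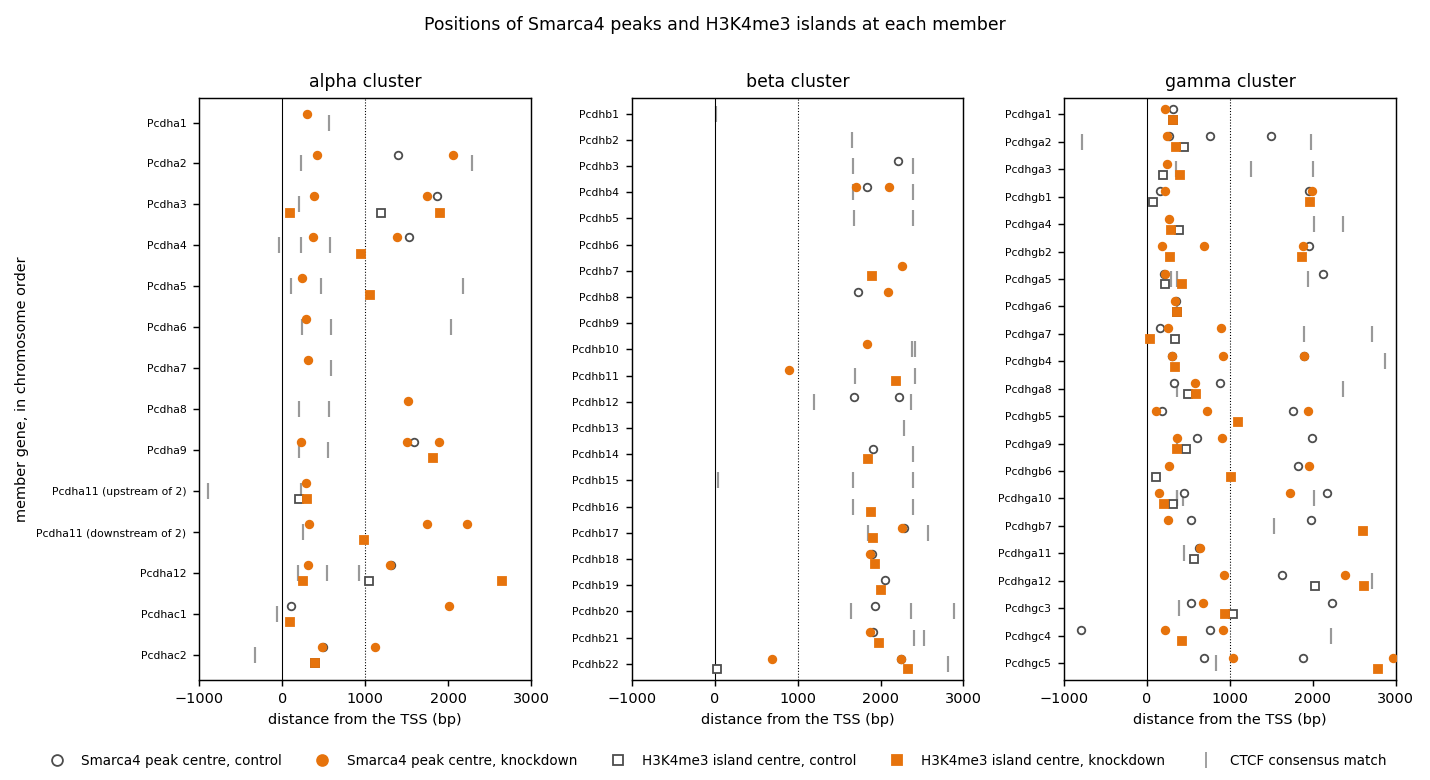
Centres of Smarca4 peaks (circles) and H3K4me3 islands (squares) relative to the TSS of each member, from 1000 bp upstream to 3000 bp downstream, in control (open grey) and knockdown (filled orange). Grey ticks are matches to the CTCF consensus and the dotted line marks the end of the promoter window. Smarca4 in the alternate alpha genes sits at 221 to 421 bp in knockdown alone, and the beta genes carry Smarca4 and, in knockdown, H3K4me3 mostly at about 1.7 to 2.3 kb.

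The alpha C-type genes and Pcdhgc3 stood apart from the alternate genes of their clusters in their Smarca4 calls or scores, and Pcdhgc4 and Pcdhgc5 did not. Pcdhac1 was the only member promoter with a Smarca4 peak in ctrl alone. Its peak had a score of 94 and was centred 105 bp downstream of the TSS. In kd the only peak nearby, with a score of 74, was centred 2015 bp downstream of the TSS. Pcdhac2 had a Smarca4 peak in both lists, with a score of 124 in ctrl and 161 in kd, and Ezh2 in both lists, with a score of 135 in ctrl and 558 in kd. Of the 57 members it was the only one with an Ezh2 call at the promoter in ctrl. Pcdhgc3 had the highest Smarca4 score of any member promoter in each list, 204 in ctrl and 171 in kd, from peaks about 2 kb wide. Pcdhgc4 stood at 91 and 84, and Pcdhgc5, the last gene of the locus, at 32 and 35, which is within the range of the gamma-A genes (28 to 133 in ctrl and 19 to 117 in kd).

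The beta promoters were almost devoid of Smarca4 calls. No beta promoter was called in ctrl, and 2 of 22 were called in kd, Pcdhb11 with a score of 28 and Pcdhb22 with a score of 42. Pcdhb1, the first gene of the cluster, had no Smarca4 region in either list. However, 11 of 22 beta genes in ctrl and 8 in kd had a Smarca4 peak centred 1 to 3 kb downstream of the TSS, a stretch that was added after the positions had been seen. Over all protein-coding genes, 20.5% in ctrl and 18.3% in kd had such a peak. The beta peaks were confined to the narrow range of 1676 to 2286 bp in ctrl and 1702 to 2261 bp in kd, and their scores were low (17 to 84 in ctrl and 38 to 66 in kd). Genes with such a peak in both lists were Pcdhb4, Pcdhb8, Pcdhb17, Pcdhb18, Pcdhb21 and Pcdhb22, and at Pcdhb8 the peaks of the 2 lists did not overlap. At Pcdhb22, the last gene of the cluster, the score was 84 in ctrl and 56 in kd. With a score of at least 50, 2 beta genes in ctrl and 5 in kd had a peak in that stretch. With the window widened to 2 kb on each side of the TSS, 9 beta promoters were called in ctrl and 7 in kd.

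The gamma cluster carried Smarca4 in both conditions. It was called at 17 of 21 gamma promoters in ctrl and at 21 of 21 in kd. The 4 promoters called in kd alone were Pcdhga3 (score 47), Pcdhga4 (75), Pcdhgb2 (76) and Pcdhgb6 (81). With a score of at least 50, 11 gamma promoters in ctrl and 15 in kd were called. After Pcdhgc3, the highest scores in ctrl were at Pcdhga8 (133 in ctrl and 101 in kd) and Pcdhgb7 (132 in ctrl and 84 in kd). In kd the order was Pcdhgc3, Pcdhac2 and Pcdhga1, the first gene of the gamma cluster, which stood at 117 in kd and 38 in ctrl. Among the members called in both lists there was thus no common direction, with a lower score in kd at Pcdhga8 and Pcdhgb7 and a higher one at Pcdhga1. Over the whole gamma cluster 48 Smarca4 peaks were called in ctrl and 47 in kd. Of these, 32 of the ctrl peaks and 34 of the kd peaks overlapped a peak of the other list, that is 66.7% (95% Wilson interval 52.5 to 78.3, counting error only) and 72.3% (58.2 to 83.1). In the alpha cluster 11 peaks were called in ctrl and 25 in kd, and 6 of the former (54.5%) and 8 of the latter (17.2 to 51.6% by the same interval) were shared. Over the whole lists 56.1% of ctrl peaks and 64.4% of kd peaks were shared.

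The gamma-B genes also had peaks both near the TSS and deep in the first exon, and the search found no CTCF match in a gamma-B promoter. All 6 gamma-B genes had a peak centred 1754 to 1979 bp downstream of the TSS in ctrl, and 5 of 6 had one at 1886 to 1991 bp in kd. Their promoter peaks were centred 156 to 528 bp downstream of the TSS in ctrl and 108 to 913 bp in kd, and the nearest CTCF match was at least 1006 bp away from their centres in ctrl. In gamma-A genes, 9 of 12 in ctrl and 12 of 12 in kd had a peak centre within 1 kb of the TSS, all between 149 and 923 bp downstream of it. Of all members, 18 in ctrl and 34 in kd had such a centre, against 60.7% and 62.2% of all genes. Of these gamma-A peaks, 5 of 11 in ctrl and 5 of 14 in kd held a match.

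Ezh2, which places the H3K27me3 mark, was called in few members. The kd list added 6 member promoters to Pcdhac2, namely Pcdhac1 (score 60), Pcdhga9 (29), Pcdhgb6 (253), Pcdhga10 (52), Pcdhgb7 (50) and Pcdhga12 (47). Over all promoters 5.78% were called for Ezh2 in kd alone and 0.283% in ctrl alone, compared with 10.5% and 0 of the members. All but Pcdhac1 lie in 1 stretch of the gamma cluster, from Pcdhga9 to Pcdhga12. At Pcdhgb6 the Ezh2 peak was 452 bp wide in ctrl, with a score of 45 and its centre 1844 bp downstream of the TSS, and 1317 bp wide in kd, where it reached into the promoter window. At Pcdhga12 the kd peak only touched the edge of the window, covering 0.1% of it, and was centred 1151 bp downstream of the TSS. With the window narrowed to 500 bp, 4 member promoters were called in kd. At Pcdha12 an Ezh2 peak inside the first exon had a score of 19 in ctrl and 105 in kd. The beta cluster held no Ezh2 peak in either list. Ezh2 centres lay within 1 kb of the TSS in 1 member in ctrl and 5 in kd, against 6.60% and 11.7% of all genes, and 1 to 3 kb downstream of it in 2 and 6 members, against 2.19% and 2.58% of all genes. The Ezh2 scores in kd were higher in general, with a median of 124 against 72 in ctrl. The lists also differed in make-up, with 45.9% of peaks in ctrl and 3.24% in kd mostly repeat-masked (at least 50% of bases), and the part of this in the score differences at Pcdhac2, Pcdhgb6 and Pcdha12 was not tested.

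H3K27me3 covered the promoters of all 3 clusters. The only member without an island in ctrl was Pcdha7, and Pcdha6 and Pcdhga1 were called in ctrl alone. In ctrl, −log10 of the SICER p-value was 13.4 at Pcdha6 and 38.2 at Pcdhga1, which is percentile 17.2 and 58.2 of the list. In contrast, all islands that held 3 or more member promoters had a p listed as 0, except 1 in ctrl with −log10 p of 278.2. No member was called in kd alone. Over all promoters, 8.15% were called in ctrl alone and 2.39% in kd alone. The calls are not independent of each other, since the 56 promoters called in ctrl rested on 34 islands and the 54 called in kd on 17 islands. In ctrl the widest island of the locus was 66200 bp wide and held 11 gamma promoters. In kd the widest was 58400 bp wide and held 8 beta promoters, from Pcdhb15 to Pcdhb22.

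The length covered by H3K27me3 was higher in kd in the alpha and beta clusters, and lower in the gamma cluster and over the chromosomes as a whole. In the alpha cluster islands covered 76.0 kb in ctrl and 108.2 kb in kd, or 29.3% and 41.7% of its length. In the beta cluster they covered 133.0 kb in ctrl and 198.5 kb in kd, or 50.9% and 75.9%. In the gamma cluster coverage was 130.3 kb in ctrl and 122.2 kb in kd, or 71.6% and 67.1%. The chromosomes as a whole were covered to 7.17% in ctrl and 5.31% in kd. The beta cluster held fewer and wider islands in kd, with 20 in ctrl (median width 5100 bp) and 10 in kd (16600 bp). All 20 ctrl islands of the beta cluster overlapped an island of the kd list. In the alpha cluster, 5 of 12 kd islands had no counterpart in ctrl. The kd list had no island between Pcdha5 and Pcdha8. SICER joins windows that lie close to each other, so that the same signal can be listed as 1 wide or several narrow islands, and the part of this step in the covered length was not tested. With islands of −log10 p of at least 20, the covered length was 73.4 kb in ctrl and 87.2 kb in kd in the alpha cluster and 131.6 kb and 190.7 kb in the beta cluster.

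**Figure D4:**
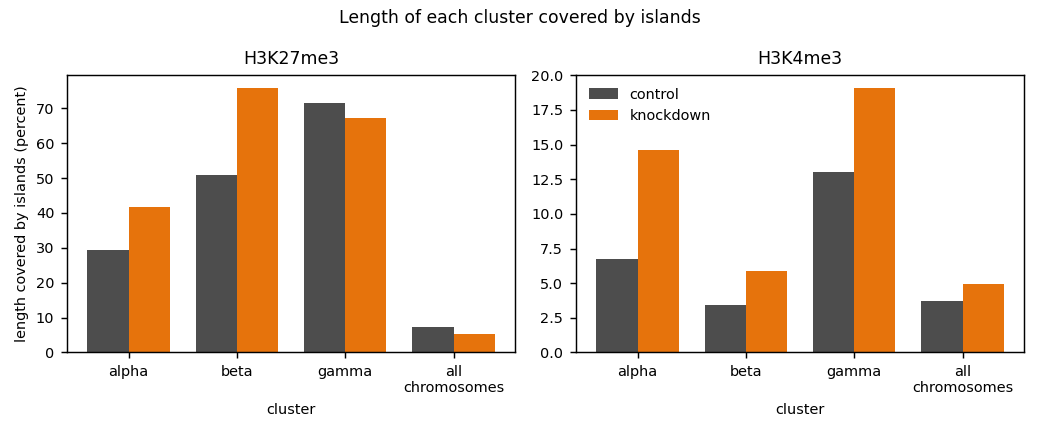
Percentage of the length of each cluster, and of all chromosomes used, that is covered by H3K27me3 islands (left) and H3K4me3 islands (right) in control (grey) and knockdown (orange). Each bar is 1 library. H3K27me3 coverage is higher in knockdown for the alpha and beta clusters (41.7% and 75.9%) and lower over all chromosomes (5.31%).

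H3K4me3 was most frequent in the gamma cluster and almost missing from the beta promoters. It was called at 4 of 14 alpha promoters in ctrl and 8 in kd, at 1 of 22 and 0 of 22 beta promoters, and at 15 of 21 and 19 of 21 gamma promoters. The median −log10 p of the called alpha promoters was 13.5 in ctrl and 14.3 in kd, below the stricter threshold of 20 used later. For the called gamma promoters it was 25.6 and 35.8. All 12 gamma-A promoters were called in both lists. Of the gamma-B promoters, 2 of 6 were called in ctrl and 5 of 6 in kd. In kd alone 9 members were called, or 15.8%, against 4.59% of all promoters. They were Pcdha4 (−log10 p of 18.7), Pcdha5 (22.9), the downstream Pcdha11 (11.5), Pcdhac1 (15.4), Pcdhgb2 (31.6), Pcdhgb4 (24.6), Pcdhgb5 (26), Pcdhgb7 (57.5) and Pcdhgc4 (14.8). The island at Pcdhgb7 was 5200 bp wide and joined on to the neighbouring Pcdhga11, which had an island of 2200 bp of its own in ctrl. In ctrl alone Pcdhb22 (10.9) and Pcdhgb1 (13.7) were called, against 0.779% of all promoters. Most of these islands are weak. All lie below the median −log10 p of their list (54.5 in ctrl and 61.7 in kd), Pcdhgb7 only just. The kd list was also the longer, with 33506 islands against 26130. With lists of equal length the counts of members were 20 in ctrl and 18 in kd, so that the order turned. In alpha the count in kd was then 3 of 14.

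Each member promoter with H3K4me3 in ctrl also carried H3K27me3, the pairing called bivalent, with 20 of 57 members in ctrl and 26 in kd, or 35.1% and 45.6%. Over all promoters the share was 21.2% in ctrl and 21.6% in kd. With lists of equal length, an alternative added for this count after seeing the data, 20 members in ctrl and 17 in kd were bivalent, so that the order turned here too. Chromatin from many cells cannot tell both marks at the same allele from different cells with 1 mark each. H3K27me3 without H3K4me3 was found at 36 members in ctrl and 28 in kd, against 13.7% and 7.60% of all promoters. Of the gamma promoters, 15 of 21 were bivalent in ctrl and 18 in kd. Of the beta promoters, 21 of 22 in ctrl and 20 of 22 in kd carried H3K27me3 alone of the 5 antibodies. For the alpha promoters this count was 8 of 14 in ctrl and 1 in kd. The share of all protein-coding promoters with H3K27me3 alone was 6.83% in ctrl and 4.87% in kd.

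In the beta cluster, H3K4me3 islands in kd lay inside the first exons. In the stretch from 1 to 3 kb downstream of the TSS, no beta gene had an H3K4me3 island centre in ctrl and 9 of 22 had one in kd, while the share over all protein-coding genes was 10.9% in ctrl and 10.2% in kd. The genes were Pcdhb7, Pcdhb11, Pcdhb14, Pcdhb16, Pcdhb17, Pcdhb18, Pcdhb19, Pcdhb21 and Pcdhb22. With lists of equal length 5 of these genes remained in kd, and with islands of −log10 p of at least 20 there were 4, with 0 in ctrl in both cases. The island centres were 1845 to 2330 bp from the TSS, which is where the Smarca4 peaks of this cluster lie. The islands had −log10 p from 11.1 to 37.2 and did not overlap any island of the ctrl list. The highest values were at Pcdhb17 (37.2) and Pcdhb16 (34.3). Of the 11 H3K4me3 islands of the beta cluster in kd, 5 overlapped a Smarca4 peak of the same condition and 10 an H3K27me3 island. In the gamma cluster all 22 H3K4me3 islands in kd and 12 of 15 in ctrl overlapped a Smarca4 peak. Such overlap was common, since 12815 of the 13245 promoters with H3K4me3 in kd over all genes also had Smarca4. In ctrl these counts were 11721 of 12410.

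The H3K27ac islands of the locus lay away from the TSSs and, like those of the whole lists, mostly in repeats. Of 23 islands in ctrl and 27 in kd, none came within 1 kb of a member TSS, the closest edge being 1279 bp away, and the median distance to a member TSS was 18021 bp in ctrl and 13103 bp in kd. By cluster, 7 lay in the alpha cluster in each list, 2 in ctrl and 3 in kd in the beta cluster, and 7 in each list in the gamma cluster, with the others between the clusters. At least 90% of the bases were repeat-masked in 16 of 23 islands in ctrl and 17 of 27 in kd. At least 50% were masked in 19 islands in ctrl and 22 in kd, compared with 79.1% and 74.1% of the islands of the whole lists. In kd, 15 of the 27 islands overlapped an H3K4me3 island, compared with 4 of 23 in ctrl. The H3K4me3 list was longer in kd (33506 islands against 26130). The share over the whole H3K27ac lists is not given here, so that these counts cannot be read as a trait of the locus. Whether reads from repeats placed at these positions had a part in these islands was not tested.

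**Figure D5:**
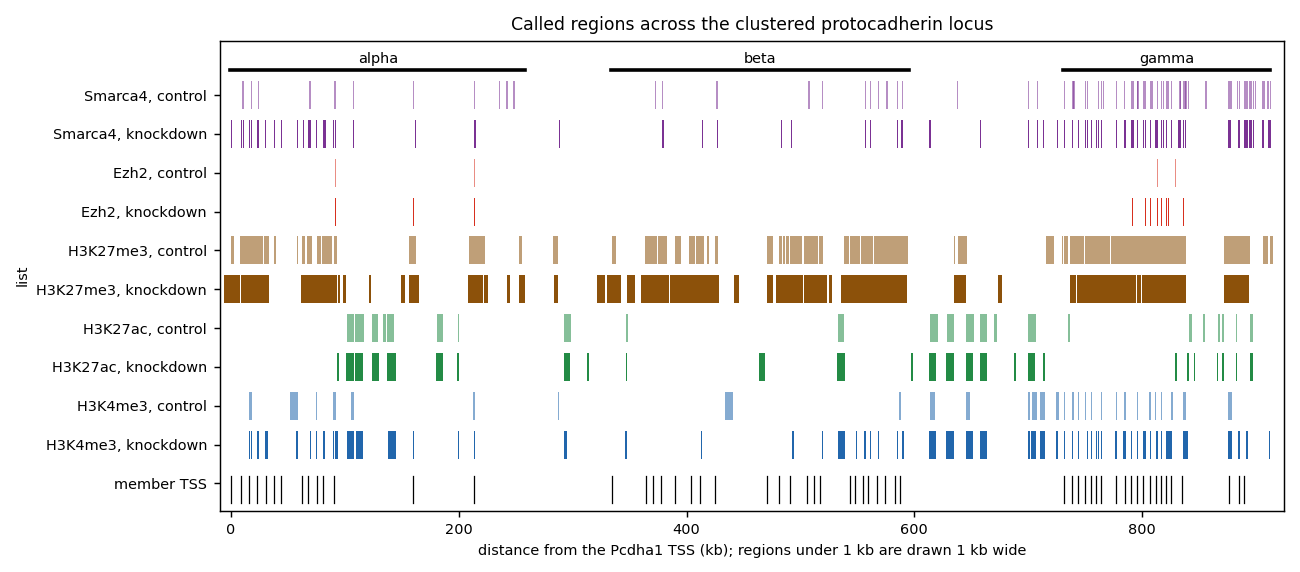
Called regions along the locus, in kb from the Pcdha1 TSS, with 1 row per antibody and condition (pale for control, full colour for knockdown) and the 57 member starts in the bottom row. H3K27me3 blocks follow the rows of promoters, H3K27ac blocks lie away from the member starts, both between the clusters and inside them, and Smarca4 is densest over the gamma cluster.

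Outside the first exons, Smarca4 was found at the ends of the clusters and in the gaps between them. Past the last variable exon of the gamma cluster, over the 20.4 kb that hold the constant exons, 11 Smarca4 peaks were called in ctrl and 11 in kd, and 9 and 10 of these overlapped a peak of the other list. Their scores ran from 22 to 180 in ctrl and from 31 to 158 in kd. Past the last variable exon of the alpha cluster, over 42.2 kb, 3 peaks with scores of 44 to 57 were called in ctrl and none in kd. The highest Smarca4 score of the locus in kd, 395, belonged to a peak 17832 bp downstream of the Pcdha12 TSS whose bases were 98.6% repeat-masked. In ctrl this peak had a score of 61. A further kd peak, with a score of 171 and no masked base, lay between the alpha and beta clusters (37218055 to 37218443) and was not called in ctrl.

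The other protocadherins had no Smarca4 call that differed between the lists. Among 12 non-clustered protocadherins, which are single genes elsewhere in the genome, Smarca4 was called at the same 10 promoters in ctrl and kd. H3K27me3 was called at 12 in ctrl and 11 in kd, and H3K27ac at none. Ezh2 was called at 9 in ctrl and 10 in kd, that is at most of them. At Pcdh19, linked to a form of epilepsy, the Ezh2 score was 322 in ctrl and 1027 in kd. At Pcdh10 it was 392 and 464, and at Pcdh9 45 and 29. The 39 genes of the Hox clusters, the classical Polycomb targets, were like the protocadherins in that H3K27me3 was called at 39 of 39 and H3K27ac at none in both conditions. They differed from them in Ezh2, which was called at 32 in ctrl and 36 in kd, and in Smarca4, called at 34 in each. H3K4me3 was called at 13 Hox genes in ctrl and 21 in kd. Of the Hox genes, 10 (25.6%) were called for it in kd alone and 2 in ctrl alone, compared with 15.8% of the clustered protocadherins in kd alone.

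Of 16 genes known to regulate the clusters, Ctcf, Rad21, Smc3, Stag2, Nipbl and Wapl, which encode CTCF, cohesin subunits and cohesin regulators, had a Smarca4 peak and an H3K4me3 island in both lists. Of the other cohesin subunits in the list, Smc1a had a Smarca4 peak in kd alone (score 55), and Stag1 had no call for any antibody. The TSS used is the outermost annotated start of a gene, so that calls at other starts of Stag1 would not be counted. The Ctcf promoter had a Smarca4 score of 369 in ctrl and 407 in kd. Over the 16 genes, Smarca4 was called at 13 in ctrl and 14 in kd, H3K4me3 at 14 in each, and H3K27ac at 7 in ctrl and 11 in kd. The lists do not measure the expression of these genes or the binding of their products. A further 20 protein-coding genes start inside the locus or within 250 kb of it. Among these neighbours, H3K27me3 was called at 6 in ctrl and 3 in kd, and H3K4me3 at 14 and 16. The frequent H3K27me3 of the clusters was thus not shared by the whole neighbourhood. Smarca4 was called at 15 neighbours in ctrl and 18 in kd, with 3 called in kd alone (Gm42416, Taf7 and Zmat2) and 0 in ctrl alone. Smarca4 calls in kd alone were therefore not confined to the protocadherins of this stretch. Taf7, a gene for a subunit of the general transcription factor TFIID that lies between the beta and gamma clusters, had an H3K4me3 island with −log10 p of 286.4 in ctrl and 145.5 in kd and no H3K27me3 island.

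The members resemble each other in sequence, and the authors kept uniquely aligned reads. The share of 75-base stretches of a promoter window that occur only once in the genome was 86.6% to 99.1% in the alternate alpha genes, 94% or more in the beta genes and 94.6% or more in the gamma genes. The lowest value was that of Pcdha7, the only member without H3K27me3 in either list, and Pcdha6 and Pcdha8 stood at 89.4% and 89.9%. The upstream and downstream Pcdha11 stood at 89.8% and 89.7% and had H3K27me3 in both lists and Smarca4 in kd. The part of sequence similarity in the missing calls was not tested.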

How the data were processed

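Regions called from 10 ChIP-seq libraries (5 antibodies, 2 conditions, 1 library each) were used, and the 4 input libraries of the study were not analysed here. By the methods and the submitters' processing notes, the authors trimmed reads with Trim Galore, aligned them to mm10 with Bowtie2, filtered unique alignments with SAMtools 1.9, and called Smarca4 and Ezh2 peaks with MACS2 and histone islands with SICER. Calls were made against input (methods) or IgG (labels and names of the peaks), which could not be settled. The deposited value of a peak is the authors' MACS2 score and that of an island the authors' SICER p-value. Neither is scaled between libraries.

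Only regions on the autosomes and sex chromosomes were used. Genes were taken from GENCODE M21 on GRCm38, whereas the paper names a later release. A promoter was called when a region overlapped the TSS ± 1 kb by at least 1 bp. Repeat-masked bases, CTCF matches and 75-base stretches were counted on the GRCm38 sequence. Overlaps were tested on simulated lists and against bedtools 2.31.1, and Python 3.11.15 with numpy 2.4.6 and scipy 1.17.1 was used.

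Named genes are the C-type members, the first and last gene of each cluster, members whose call differed between the conditions, and the 3 highest scores per Smarca4 and Ezh2 list. Beta genes with a first-exon region and genes of the comparison lists were named after their values were seen. The members and gene lists were chosen with earlier results of these data known.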

Additional observations from a re-analysis of the deposited data

How the results depend on the processing

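Depth limits all results, since read counts are unknown and a missing call is not an absence. Under the alternatives, 285 values stayed within 1.5 times the value reported and 67 did not. No paired analysis was possible because there is 1 library per antibody and condition and no test was made, and for the same reason there was no replicate to leave out.

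Counts of member promoters depended most on the window. With 2 kb on each side of the TSS, Smarca4 was called at 35 members in ctrl (4 in ctrl alone, 11 in kd alone), Ezh2 at 3 in ctrl and 11 in kd, H3K27ac at 2 in each condition (1 in ctrl alone, 1 in kd alone), and H3K4me3 at 0 in ctrl alone and 18 in kd alone. With 500 bp, Ezh2 was called at 4 members in kd (3 in kd alone) and Smarca4 at 2 in ctrl alone. Regions centred 1 to 3 kb downstream of the TSS, a stretch chosen after seeing the data, were found at 29 members for Smarca4, 2 for Ezh2 and 4 for H3K4me3 in ctrl, compared with 25, 6 and 20 in kd. With a peak centre required inside the window, Smarca4 was called at 2 members in ctrl alone.

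When weak regions were dropped (scores below 50, H3K27ac islands with −log10 p below 10, other islands below 20), Smarca4 was called at 22 members in kd and at 4 in ctrl alone, H3K4me3 at 10 in ctrl and 17 in kd (1 in ctrl alone), and H3K27me3 at 1 in ctrl alone. Regions of the locus found in 1 condition were then 14 in ctrl and 27 in kd for Smarca4, 4 and 2 for H3K27me3, 17 in kd for H3K4me3 and 1 in ctrl for H3K27ac. The covered length was 1.4 kb for Ezh2 in ctrl, and 46.4 kb in ctrl and 74.4 kb in kd for H3K4me3.

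With lists of equal length, H3K4me3 was called at 8 members in ctrl alone, with 10 ctrl-only and 15 kd-only regions in the locus and 84.4 kb covered in kd. H3K27me3 was called at 1 member in ctrl alone, with 4 ctrl-only regions. Without regions of at least 50% repeat-masked bases, H3K27ac covered 8.8 kb in ctrl and 7.6 kb in kd (1 ctrl-only and 2 kd-only regions), H3K4me3 covered 40.8 kb and 62.8 kb, Ezh2 had 0 ctrl-only regions and H3K27me3 5 kd-only regions. Fewer regions enter by construction in these alternatives. Beyond that, the cause was not tested.

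Every annotated transcript start, the locus from first to last TSS, and the rule that at least 50% of a region be covered moved no value by more than 1.5 times. The higher H3K27me3 coverage of the alpha and beta clusters in kd was kept under each alternative tried for it.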
